A study of Mus musculus with 4 samples.

Results

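Plasmacytoid dendritic cells (pDC) were studied in whole lungs of B6 mice that carried tumours grown from intravenously injected KP lung cancer cells. The cells were taken from 4 single-cell RNA libraries by their raw counts of unique molecular identifiers (UMIs), each of which stands for 1 captured RNA molecule. A cell had to hold at least 200 genes, at most 10% mitochondrial UMIs, at least 2 UMIs of Siglech, at most 1 UMI of Cd3d, Cd3e and Cd3g together, 0 UMIs of Cd79a and at most 2 UMIs of C1qa, C1qb and C1qc together. This gate held 160 of the 23730 cells that passed the gene and mitochondrial limits, out of 25213 deposited. The members were thus chosen by these measured gene counts, in a gate set with earlier results of these data known.

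The first library, KO anti-PD-1, came from mice with KP-Asf1a KO tumour cells, which lack the histone chaperone gene Asf1a, given the anti-PD-1 antibody clone 29F.1A12 at 200 ug per mouse, 3 times a week for 1 week. KO IgG came from mice with tumours of the same genotype, given isotype IgG for 1 week. WT anti-PD-1 came from KP-WT tumours with the antibody, and WT IgG from KP-WT tumours with isotype IgG for 1 week. Asf1a was deleted in the injected tumour cells, so pDC in every group are host cells with an intact gene. The labels do not say whether the KO tumour cells are 1 clone or how many mice each library holds. Asf1a was counted in cells with at least 5 UMIs of Krt8 and Krt18 and 0 of Ptprc, which may include normal epithelium. It stood at 5.91 CPM (UMIs of the gene per 1000000 UMIs of the cells summed) in KO anti-PD-1 and 13.1 in KO IgG. In WT anti-PD-1 it stood at 30.6 and in WT IgG at 35.4. These levels rest on 6, 27, 28 and 36 UMIs. In pDC, Asf1a stood at 10.9, 27.4, 28.7 and 44.7 CPM in the same order, on 2, 3, 5 and 9 UMIs. The libraries thus ranked alike in both sets of cells, and the cause was not tested. Each condition had 1 library, so differences between conditions have no test. Cells were live-sorted with DAPI and made into 10x Genomics 3′ version 2 libraries of 16078095 to 22506737 UMIs.

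pDC are dendritic cells that develop under the transcription factor TCF4 (E2-2), an E protein that binds E-box DNA, and that look like small antibody-secreting cells. They sense viral nucleic acid in endosomes through TLR7 and TLR9 and can then release large amounts of type I interferon. Resting pDC carry little MHC class II and prime T cells poorly beside conventional dendritic cells, and in tumours they have been described mostly as dampening T cell responses.

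The label was checked against markers that the gate did not use, and these were nearly always present. Of the 160 cells, 157 held at least 1 UMI of Ccr9, Cox6a2 or Klk1, and 73 held all 4 of Siglech, Ccr9, Cox6a2 and Klk1. Ccr9, a chemokine receptor for gut and thymus homing, was seen in 88.1% of pDC, and Cox6a2, a cytochrome c oxidase subunit otherwise known from heart and skeletal muscle, in 88.8%. Klk1, a tissue kallikrein protease, was seen in 55.0%. In T cells, most of which should lack these genes, the shares were 2.21%, 0.534% and 0.11%, at a median of 2246 UMIs per T cell against 3949 UMIs per pDC, though some T cells do use Ccr9. Other pDC genes were as widespread: Bst2, a surface protein that tethers virions, was seen in 98.8% of pDC, Irf8 in 96.2%, Tcf4 in 95.6% and Ly6d in 87.5%, against 25.1%, 7.79%, 2.73% and 2.39% of T cells. Ms4a1, Pax5, Adgre1, Mrc1, Fcgr1 and Themis had 0 UMIs in the 160 cells, as did all 5 basophil markers. Other markers of other cell types were present, with 271 UMIs of Lyz2, 174 of Apoe and 80 of Cd68 from the macrophage list and 750 of S100a8 and 433 of S100a9 from the neutrophil list. The macrophage list summed to 1291, 684, 637 and 631 CPM in pDC of KO anti-PD-1, KO IgG, WT anti-PD-1 and WT IgG, against 1473 to 1837 CPM in conventional dendritic cells. Other lists were not lower in pDC. The NK cell list summed to 591 to 1028 CPM against 333 to 546 CPM. The plasma cell list, which includes Mzb1 and Iglc2, summed to 763 to 1103 CPM against 232 to 425 CPM. The neutrophil list ranged from 691 to 4056 CPM against 831 to 1701 CPM.

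In what follows, every run of 4 values is given for KO anti-PD-1, KO IgG, WT anti-PD-1 and WT IgG. Siglech, the receptor gene that the gate used, had 1586, 1632, 1618 and 1859 CPM in pDC. Ccr9 had 897, 903, 1049.9 and 984 CPM and Cox6a2 1996, 1696, 1675 and 1913 CPM. Klk1 had 361, 675, 442 and 666 CPM. Siglech, Ccr9 and Cox6a2 were within 1.5-fold across the libraries, while Klk1 was lowest in KO anti-PD-1. Near the threshold, 17 cells held exactly 2 Siglech UMIs, 13 of them in KO anti-PD-1, and 94.1% of these 17 held Ccr9, Cox6a2 or Klk1. The 50 otherwise eligible cells with 1 Siglech UMI held one of the 3 genes in 18% of cells, and cells with 0 in 1.32%. The 15 cells with 3 UMIs held one in 93.3%, and the 39 with 10 or more in 100%. Among 174 cells with 2 or more Siglech UMIs, 14 were left out, 9 for Cd3 genes and 6 for Cd79a, 1 of them for both.

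**Figure D1:**
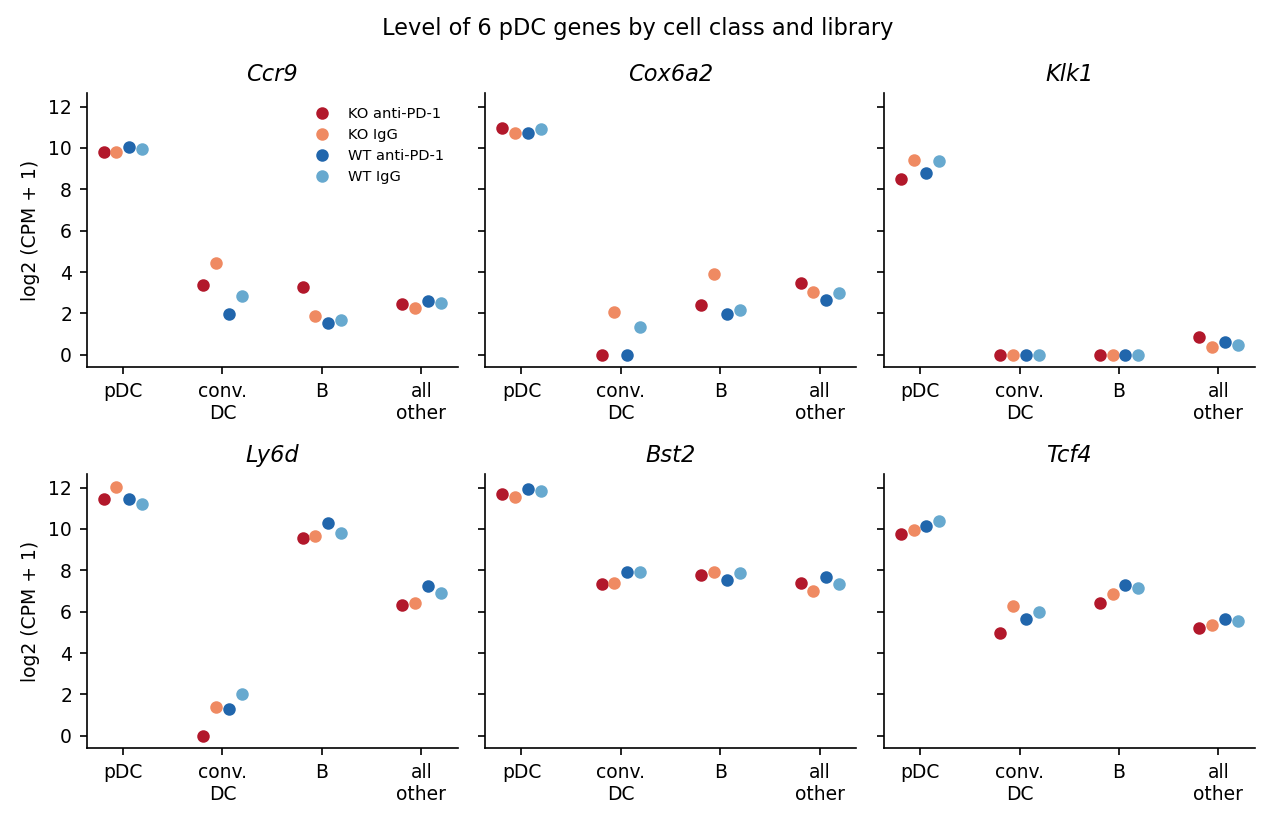
Level of 6 pDC genes, as log2 of CPM plus 1, in pDC, conventional dendritic cells, B cells and all other cells, with 1 point per library. All 4 pDC points lie above every point of the other 3 classes for each gene, and for Ly6d the B cell points come closest.

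The promoters of the genes that mark these cells are shown because TCF4 binds E-boxes, and capitals mark each E-box (CANNTG, which reads the same on both strands). RefSeq windows of GRCm38.p6, from 250 bases before to 50 bases after the annotated start, were found for 3 of the 4 genes. Cox6a2 had no entry. The Siglech window lies at chr7:55767934-55768233, Ccr9 at chr9:123766961-123767260 and Klk1 at chr7:44225110-44225409, all on the plus strand and printed 5′ to 3′.
Siglech: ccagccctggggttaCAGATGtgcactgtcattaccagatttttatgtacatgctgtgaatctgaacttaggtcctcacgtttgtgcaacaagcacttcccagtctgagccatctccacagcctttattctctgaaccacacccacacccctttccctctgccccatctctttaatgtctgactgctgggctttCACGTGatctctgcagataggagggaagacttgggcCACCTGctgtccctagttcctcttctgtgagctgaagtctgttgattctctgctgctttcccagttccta
Ccr9: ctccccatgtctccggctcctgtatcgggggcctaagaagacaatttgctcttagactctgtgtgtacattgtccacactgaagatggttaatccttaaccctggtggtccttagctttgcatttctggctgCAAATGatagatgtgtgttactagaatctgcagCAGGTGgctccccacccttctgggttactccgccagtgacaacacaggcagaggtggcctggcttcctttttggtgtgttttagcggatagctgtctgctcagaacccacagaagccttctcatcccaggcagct
Klk1: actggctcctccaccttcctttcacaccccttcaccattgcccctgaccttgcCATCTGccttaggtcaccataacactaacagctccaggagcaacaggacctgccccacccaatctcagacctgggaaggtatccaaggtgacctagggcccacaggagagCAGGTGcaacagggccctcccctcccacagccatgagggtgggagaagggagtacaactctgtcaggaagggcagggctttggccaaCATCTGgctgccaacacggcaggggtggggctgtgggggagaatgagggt
Siglech and Klk1 held 3 E-boxes each and Ccr9 held 2. Each window held 1 copy of CAGGTG or its reverse complement CACCTG. Of 32851 RefSeq windows of this length, 72.3% held at least 1 E-box, 39.6% held 2 or more and 20.2% held CAGGTG or CACCTG. Such a match is a description of letters and not of binding.

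KO anti-PD-1 held 56 pDC among 5677 cells, a share of 0.986% (0.746 to 1.28%), with an exact Clopper-Pearson 95% interval that covers counting error only. The other 3 libraries were lower, and their intervals overlapped widely. KO IgG held 32 of 6023 cells or 0.531% (0.364 to 0.749%), WT anti-PD-1 36 of 6285 or 0.573% (0.401 to 0.792%), and WT IgG 36 of 5745 or 0.627% (0.439 to 0.866%). The KO anti-PD-1 share was 1.86 (1.18 to 2.96) times that of KO IgG and 1.72 (1.11 to 2.70) times that of WT anti-PD-1, with exact conditional intervals that left out 1. KO IgG over WT IgG gave 0.848 (0.51 to 1.4) and WT anti-PD-1 over WT IgG 0.914 (0.56 to 1.49), both with 1 inside. These 4 ratios share libraries and compare 1 library with 1 library.

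The KO anti-PD-1 excess rested in part on cells at the threshold. With at least 3 Siglech UMIs it was 1.47 (0.906 to 2.42) over KO IgG and 1.4 (0.872 to 2.26) over WT anti-PD-1, and both intervals then held 1. Without cells that carried 10 or more UMIs of the neutrophil genes S100a8 and S100a9, the ratio to KO IgG was 1.53 (0.96 to 2.48), again with 1 inside, and that to WT anti-PD-1 was 1.87 (1.19 to 2.98). Neutrophils made up 32.6% of cells in KO anti-PD-1, 40.2% in KO IgG, 23.2% in WT anti-PD-1 and 27.6% in WT IgG. Set against conventional dendritic cells alone, pDC were 45.9% of both gates in KO anti-PD-1, 26.0% in KO IgG, 32.4% in WT anti-PD-1 and 35.6% in WT IgG. That share was 1.76 (1.12 to 2.82) times as large in KO anti-PD-1 as in KO IgG and 1.42 (0.915 to 2.21) times as large as in WT anti-PD-1. With each library thinned to the mean depth of the shallowest, the 2 ratios of the share of all cells were 1.86 (1.18 to 2.96) and 1.77 (1.14 to 2.78). With each cell thinned to 1000 UMIs and shallower cells left out, they were 2.01 (1.06 to 3.95) and 2.37 (1.29 to 4.45). These rest on 16 to 30 pDC per library. pDC were shallower in the KO libraries, with median UMIs per cell of 3140 in KO anti-PD-1, 3533 in KO IgG, 4599 in WT anti-PD-1 and 5306.5 in WT IgG.

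**Figure D2:**
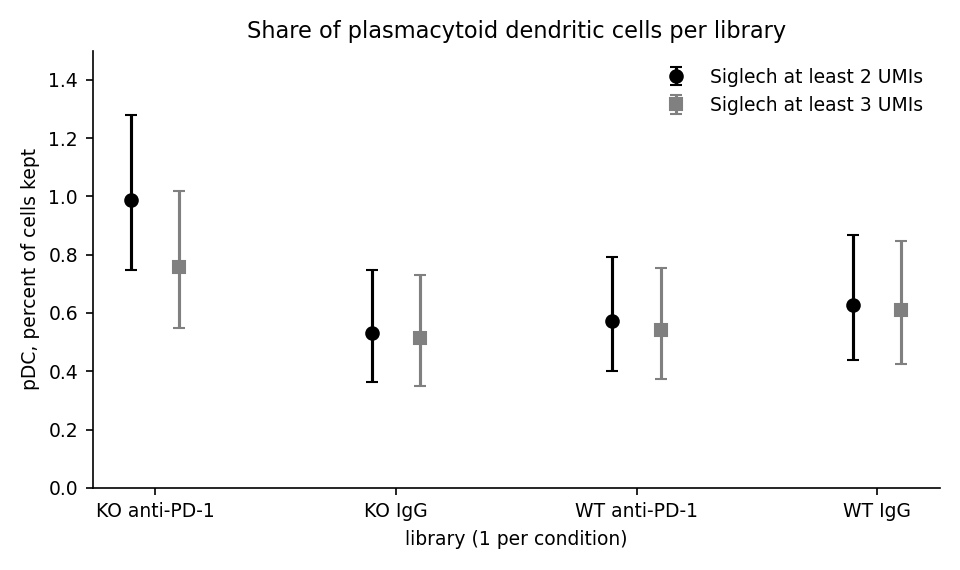
Percent of kept cells in the pDC gate in each library, with exact 95% intervals as bars, for at least 2 Siglech UMIs (circles) and at least 3 (squares). KO anti-PD-1 is highest at 0.986% under the gate used and at 0.757% under the stricter one, where its interval overlaps the others more widely.

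Against conventional dendritic cells (297 cells with 0 Siglech and at least 2 UMIs of Cd209a or of Xcr1 and Clec9a), pDC differed in a large part of the genes that could be tested. Summed UMIs of the 4 libraries entered edgeR's quasi-likelihood test with the library as block, and a gene was called at a Benjamini-Hochberg adjusted p under 0.05 and at least 2-fold. Of 3651 genes, 508 were higher in pDC (13.9%) and 469 lower (12.8%). The scaling by TMM put log2 fold changes -0.19 from the log2 ratio of CPM (median over genes with at least 100 UMIs in both classes), so levels and fold changes are not on 1 scale. The p-values measure how far the difference between the classes varied over these 4 libraries, since the block takes out the level of each library. Each library is another condition, so this spread may hold effects of condition as well as technical ones. Genes of the gates got no test. A gene could pass the count filter through 1 class alone, so counts of list members among tested genes are descriptions and leave out members low in both.

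Among the genes with the highest fold changes were surface, secreted and lymphoid genes, beside others such as Cox6a2. Klk1 had 361, 675, 442 and 666 CPM in pDC and 0 UMIs in conventional dendritic cells, at least 422-fold higher against a floor of 3 counts over the group (adjusted p = 4.7e-15). The close paralogue Klk1b27, at least 174-fold higher, may share reads with Klk1, so the split between them is uncertain. Ly6d, a surface protein of early lymphoid cells, had 2816, 4194, 2828 and 2390.5 CPM in pDC against 0, 1.58, 1.45 and 3.03 CPM in conventional dendritic cells (log2 fold change 10.41 ± 0.20, adjusted p = 7.2e-21). All pDC values lay far above all values of the other class. Cox6a2 had a log2 fold change of 9.98 ± 0.23 (adjusted p = 3e-19). The light chain constant gene Iglc3 had 1635, 1650.4, 1779 and 1317 CPM against 0, 6.32, 2.89 and 4.54 CPM (log2 fold change 8.43 ± 0.21), and may share reads with Iglc2. Dntt, the template-free DNA polymerase of V(D)J joining, had 427, 319, 195 and 348 CPM against 2.36, 0, 0 and 1.51 CPM (log2 fold change 7.89 ± 0.36). Atp1b1, the sodium pump beta subunit, had a log2 fold change of 7.78 ± 0.27. The calcium-binding membrane protein gene Mctp2 (8.44), the predicted gene Gm21762 (9.15) and Sh3bgr (7.90) completed the group with counts in both classes, as log2 fold changes. Hs3st1, a heparan sulfate sulfotransferase, and Sema4b, a semaphorin, had 0 UMIs in conventional dendritic cells and were at least 90.2-fold and 60.1-fold higher in pDC.

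At the other end, Tnip3, an inhibitor of NF-kB signalling, had 0 UMIs in pDC against 111, 289, 135 and 247 CPM in conventional dendritic cells, at least 44.9-fold lower. Ear2, an eosinophil-associated ribonuclease, was at least 22.9-fold lower, Havcr2, the checkpoint receptor TIM-3, at least 18.4-fold, Sult1a1, a sulfotransferase, at least 14.6-fold, the splicing factor gene Hnrnpll at least 10.9-fold and Hepacam2 at least 10.4-fold, each with 0 UMIs in pDC. Ear2 belongs to a family of near-identical genes, so its count is uncertain. Ccl17, a chemokine that draws CCR4-bearing T cells, had 32.8, 36.5, 0 and 0 CPM in pDC against 1296, 3696, 948 and 1391 CPM (log2 fold change -6.93 ± 0.25). Qpct, glutaminyl cyclase, had 1 UMI in pDC against 500 in conventional dendritic cells (log2 fold change -7.06).

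Of 37 genes listed as pDC surface and secreted markers, 35 could be tested, 32 were higher and 1, Cd24a, was lower, with a median log2 fold change of 4.27 against -0.0036 over all tested genes. The list was drawn from known pDC markers, so its direction was set by the choice of members. Bst2 had 3331, 2954, 3901 and 3718 CPM in pDC against 163, 164, 239 and 242 CPM (log2 fold change 3.91 ± 0.10). Ly6c2 (4.06), the inhibitory collagen receptor Lair1 (4.34), the activating receptor Cd300c (5.08), the lectin-like receptor Klra17 (4.45) and Havcr1 (5.35), the phosphatidylserine receptor TIM-1, were also higher, as log2 fold changes. Genes better known from T cells stood among them. Lag3, a checkpoint receptor that binds MHC class II, had 257, 283, 459 and 417 CPM against 9.43, 14.2, 24.6 and 25.7 CPM. It was seen in 67.5% of pDC, against 18.1% of T cells and 0.574% of neutrophils. Such shares depend on depth, and median UMIs per cell were 809 to 1303 in neutrophils of the libraries against 3140 to 5306.5 in pDC. Cd8a had 355, 274, 178 and 194 CPM against 14.1, 4.74, 18.8 and 6.05 CPM, and Cd4 had 60.2, 82.1, 109 and 59.6 CPM against 2.36, 0, 2.89 and 1.51 CPM. The T cell markers Trac, Trbc2, Cd28, Lck, Thy1 and Themis together with the 3 Cd3 genes, which the gate limited, summed to 72.9 to 148 CPM in pDC against 47.8 to 132 CPM in conventional dendritic cells.

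The transcription factor lists moved apart, but they were drawn from known factors of each class, so their directions were set by the choice of members. Of 15 pDC factors, 14 could be tested, 9 were higher and 1, Runx1, was lower (median log2 fold change 1.38). Spib, an ETS factor of pDC and B cells, had 148, 45.6, 207 and 199 CPM against 0, 1.58, 2.89 and 4.54 CPM (log2 fold change 5.58 ± 0.37, adjusted p = 2.1e-11). Runx2, which helps pDC leave the bone marrow, had 339, 429, 436 and 472 CPM against 7.07, 11.1, 17.4 and 19.7 CPM (log2 fold change 4.66 ± 0.21). Tcf4 had 859, 985, 1130.3 and 1327 CPM against 30.6, 75.8, 49.2 and 62.0 CPM (log2 fold change 4.11 ± 0.15, adjusted p = 4.6e-16). In each of these, no pDC value overlapped a value of the other class, though Spib was lowest in pDC of KO IgG. Bcl11a (3.43), Ets1 (2.94), Irf8 (1.73) and Zeb2 (1.4), which restrains the conventional dendritic cell factor Id2, followed as log2 fold changes. Irf7, the factor that amplifies interferon genes, had a log2 fold change of 0.80 (adjusted p = 0.0418) and did not reach 2-fold. Of 7 conventional dendritic cell factors, 5 could be tested and 4 were lower in pDC (median log2 fold change -2.43). Batf3, which drives cross-presenting dendritic cells, had 5.47, 9.12, 11.5 and 4.97 CPM in pDC against 167, 136, 119 and 83.2 CPM. Id2, which blocks E proteins, had 65.6, 109, 22.9 and 154 CPM against 950, 1131, 812 and 839.8 CPM (log2 fold change -3.58 ± 0.21). Rbpj and Klf4 were lower by log2 fold changes of -2.43 and -1.55. Zbtb46 had 2 UMIs in pDC against 62 in conventional dendritic cells and was below the count filter.

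**Figure D3:**
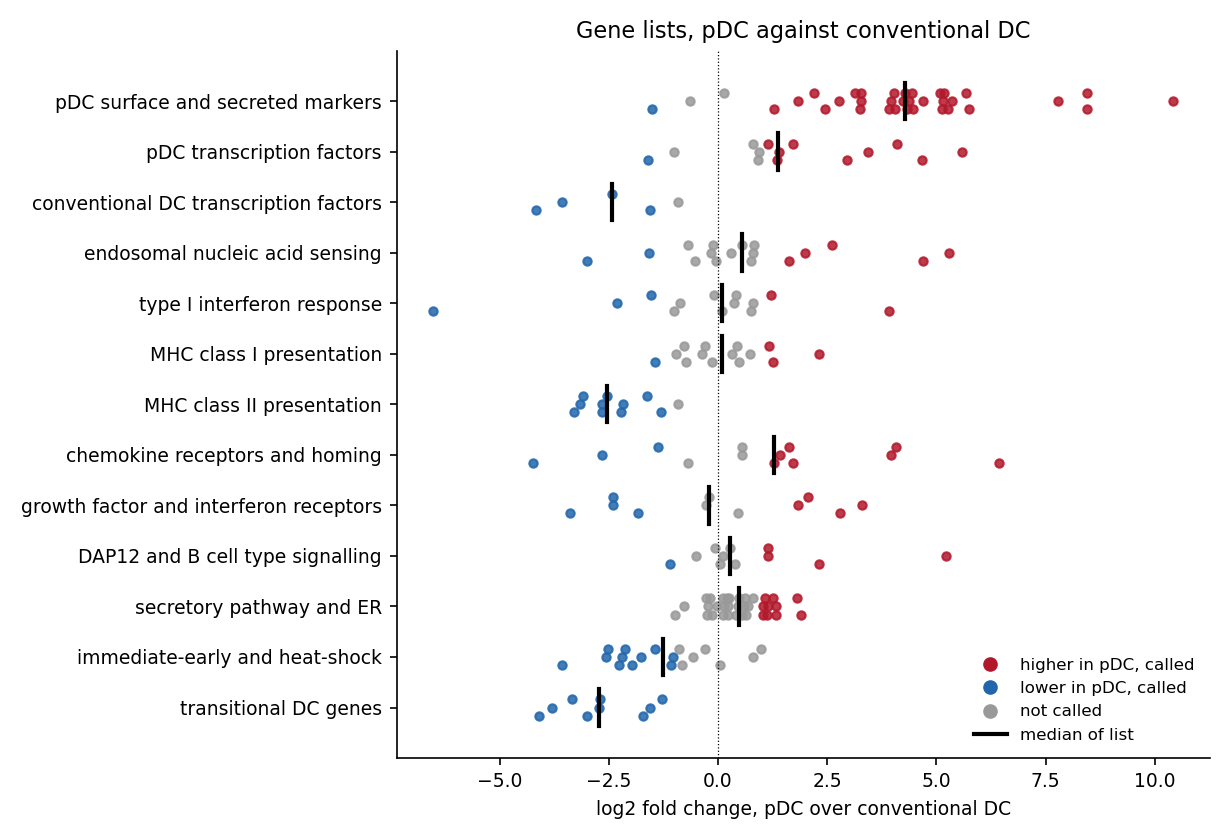
Log2 fold change of pDC over conventional dendritic cells for each tested member of 13 gene lists, with 1 point per gene and a bar at the list median. Red and blue points were called higher and lower, and pDC markers sit mostly right of 0 while MHC class II, conventional dendritic cell factors and transitional dendritic cell genes sit left of it.

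Endosomal nucleic acid sensing genes did not move as a block. Of 25 members, 17 could be tested, 5 were higher and 2 lower (median log2 fold change 0.54). Tlr7, the receptor for single-stranded RNA, had 71.1, 109, 126 and 109 CPM in pDC against 4.71, 1.58, 1.45 and 1.51 CPM (log2 fold change 5.28 ± 0.43, adjusted p = 5.4e-10), and was seen in 34.4% of pDC against 0.865% of T cells. The endosomal proteases Ctsl (4.70) and Ctsb (2.61), the exonuclease gene Pld4 (1.63) and Slc15a4 (1.99), a lysosomal transporter needed for TLR7 and TLR9 signalling, were higher as log2 fold changes. Irf5 (-1.57) and Plscr1 (-3.00) were lower. Unc93b1, the chaperone of endosomal TLRs, had a log2 fold change of 0.83 and did not reach 2-fold. Tlr9, the receptor for CpG DNA, had 0 UMIs in all 4 pDC sums. It was near 0 elsewhere too, with 1 UMI in B cells, 1 in T cells, 1 in neutrophils and 5 in macrophages, and a count of 0 among 668031 pDC UMIs allows a level of up to 4.49 CPM.

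No interferon transcript was seen in pDC. All 20 type I and III interferon genes listed, among them 14 alpha and alpha-beta genes and Ifnb1, had 0 UMIs over the 160 cells, which allows up to 4.49 CPM for each. The interferon genes match each other closely, so reads shared between them could be lost in counting. The receptor subunits Ifnar1 (137, 119, 229.5 and 184 CPM in pDC against 33.0, 47.4, 33.3 and 54.5 CPM) and Ifnar2 (284, 346, 316 and 293 CPM against 61.3, 66.3, 70.9 and 60.5 CPM) were higher in pDC, by log2 fold changes of 1.82 ± 0.24 and 2.06 ± 0.16. The interferon gamma receptor gene Ifngr1 was lower (log2 fold change -2.40 ± 0.20). Of 36 annotated type I interferon response genes, 13 could be tested against conventional dendritic cells, 2 were higher (Bst2 and Stat2, the second below 2-fold without KO IgG) and 3 lower (Ifi205, Slfn5 and Zbp1), with a median of 0.09. Isg15 and Ifi27l2a did not pass, with log2 fold changes of -0.86 and 0.37.

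MHC class II genes were lower in pDC, as 10 of 11 tested members passed and none was higher (median log2 fold change -2.54). H2-Ab1, a class II beta chain, had 2767, 2252, 1463 and 1471 CPM in pDC against 16452, 15663, 14133 and 13915 CPM in conventional dendritic cells (log2 fold change -3.15 ± 0.11, adjusted p = 1.5e-16). Cd74, the invariant chain, had 8061, 7915, 6541 and 5715 CPM against 30904, 29589, 26607 and 26844 CPM (log2 fold change -2.22 ± 0.08). Ciita, the class II transactivator, had 16.4, 36.5, 11.5 and 4.97 CPM against 104, 159.5, 122 and 156 CPM (log2 fold change -3.30 ± 0.34). The 2 classes did not overlap for these genes. MHC class I genes differed less. Of 14 tested, the non-classical genes H2-Q7 (2.31), H2-Q4 and H2-T23 (1.17) were higher, the peptide transporter gene Tap1 (-1.44) was lower and 10 did not pass, as log2 fold changes. H2-Q7 and H2-Q4 have close paralogues and are uncertain. Costimulatory ligands were mostly too low to test. Cd86 had 6 UMIs in pDC against 281 in conventional dendritic cells and Tnfsf9, the 4-1BB ligand, 2 against 236, and both were called lower. Cd274 (PD-L1) had 5 UMIs in pDC and Pdcd1lg2 (PD-L2) 6. Of the tolerance and killing genes, Ido1, Ido2, Tnfsf10 and Il27 had 0 UMIs. Of 14 genes of a transitional dendritic cell list, 9 could be tested and these were lower in pDC, among them Cd9 (-2.70), Lgals3 (-2.99), Crip1 (-2.72) and S100a4 (-3.34) as log2 fold changes. A gene of this list could pass the filter through the conventional dendritic cells alone. Part of those cells were chosen by Cd209a, itself on the list, so the count is a description.

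Trafficking genes set the classes apart in both directions, with 7 of 13 tested homing genes higher and 3 lower (median log2 fold change 1.29). S1pr4, a sphingosine 1-phosphate receptor, had 65.6, 54.7, 68.8 and 84.5 CPM in pDC against 0, 1.58, 5.79 and 4.54 CPM. Ccr9 (6.43), Cxcr3 (1.42) and Cxcr4 (1.29) were higher and Ccr1 (-2.65) and Itgae (-4.23) lower, as log2 fold changes, and Cxcr3 lost its call without WT IgG and Cxcr4 its 2-fold difference without KO anti-PD-1. Among growth factor receptors, Il7r had 197, 337, 298 and 368 CPM against 23.6, 44.2, 23.2 and 19.7 CPM (log2 fold change 3.29 ± 0.22) and Csf2rb2 a log2 fold change of 2.78. Csf1r, the receptor of macrophage growth factor, was lower (-3.39). Flt3, the receptor of the dendritic cell growth factor, did not pass, at 0.47. Ccl4, an inflammatory chemokine, was the only 1 of 9 tested chemokines that was higher in pDC, at 2658, 2207, 4619 and 4696 CPM against 1287, 1418, 1450.1 and 1047 CPM (log2 fold change 1.22 ± 0.15, or 0.96 and below 2-fold without WT IgG). Cxcl9 and Cxcl16 were lower, with 3 and 13 UMIs in pDC. Il12a, which encodes the p35 subunit shared by IL-12 and IL-35, had 82.0, 72.9, 80.3 and 34.8 CPM in pDC and 1 UMI in conventional dendritic cells (log2 fold change 6.32 ± 0.58, adjusted p = 4.7e-09), while Il12b, the other IL-12 subunit, had 0 UMIs in pDC.

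Of 19 listed lymphoid and B cell genes, 7 could be tested against conventional dendritic cells and 6 were higher in pDC. Of these 6, Ly6d, Spib and Bcl11a also stand in the pDC lists above, and the other 3 were Dntt, Ighm and Il7r. Ighm, the IgM heavy chain, had 651, 839, 643 and 765 CPM in pDC against 73.1, 97.9, 106 and 68.1 CPM (log2 fold change 2.88 ± 0.14), and Mzb1, a chaperone of IgM secretion, 268, 237, 344 and 313 CPM against 2.36, 9.48, 2.89 and 6.05 CPM (log2 fold change 5.51 ± 0.29). Blnk, the adaptor of B cell receptor signalling, had 268, 146, 269.7 and 219 CPM against 4.71, 4.74, 2.89 and 7.57 CPM (log2 fold change 5.21 ± 0.31). Tyrobp (DAP12), the adaptor through which SIGLEC-H signals, had a log2 fold change of 1.13 ± 0.09, which fell below 2-fold without the filter on low counts, as did those of H2-T23 and Sec11c. Cdh5, VE-cadherin, best known from endothelium, had 164, 119, 138 and 124 CPM against 0, 0, 0 and 1.51 CPM, and was seen in 38.1% of pDC against 0.276% of T cells. Pecam1 was also higher (2.98), whereas the endothelial and stromal genes Cldn5, Col1a1, Col3a1 and Dcn had 0 UMIs in pDC. Of 34 tested secretory pathway genes, 10 were higher than in conventional dendritic cells and none lower, at a modest median of 0.47. The signal peptidase subunits Spcs2 (1.25) and Sec11c (1.08) and the translocation protein gene Tram1 (1.33) were among them, as log2 fold changes. Of 12 tested cytochrome c oxidase subunits, only Cox6a2 was called. Its ubiquitous counterpart Cox6a1 did not pass (-0.02), nor did Cox4i1 (0.11). Immediate-early and heat-shock genes were lower in pDC, with 11 of 18 called and none higher (median -1.26), such as Dusp1 (-2.52) and Atf3 (-3.56).

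Against B cells (1407 cells with at least 2 Cd79a UMIs, which include plasma cells), 505 of 4025 tested genes were higher in pDC (12.5%) and 419 lower (10.4%). Here the scaling moved log2 fold changes by -0.90 from the log2 ratio of CPM, so calls near 2-fold depend on it. Klk1, Klk1b27, the calcium pump gene Atp2a1 and the PDZ protein gene Pdzd4 had 0 UMIs in B cells and were at least 1084-fold, 448-fold, 355-fold and 204-fold higher in pDC. Gm21762 (9.80 ± 0.31) and Sh3bgr (8.04 ± 0.32) followed as log2 fold changes. The B cell genes Ms4a1 (CD20), Vpreb3, Pou2af1, Pax5 and Igkv3-10 had 0 UMIs in pDC and were at least 82.9-fold, 61.6-fold, 43.7-fold, 20.1-fold and 48.6-fold lower. Iglv1 had 2 UMIs in pDC against 15144 in B cells. Of 19 listed lymphoid and B cell genes, 11 had under 10 UMIs in pDC and could pass the filter through the B cells. The gates also chose B cells by Cd79a, so no count of lower members is given. Bcl11a, Dntt and Il7r were higher in pDC. Dntt had 427, 319, 195 and 348 CPM in pDC against 2.86, 0, 0 and 1.32 CPM in B cells (log2 fold change 7.41 ± 0.34). Ighm was lower in pDC (log2 fold change -3.94 ± 0.16), and so was Mzb1 (-3.69 ± 0.18). Of 35 tested secretory pathway genes, 16 were lower in pDC than in B cells and none was higher, with a median log2 fold change of -0.93, but the median log2 ratio of their CPM without scaling was 0.00898, with 4 genes at least 2-fold lower and 2 higher. Of 17 tested sensing genes, 9 were higher in pDC and 2 lower, with Tlr7 at 71.1, 109, 126 and 109 CPM against 5.72, 4.43, 7.63 and 6.62 CPM in B cells.

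Against all 23570 other cells, 744 of 11458 tested genes were higher in pDC (6.49%) and 1710 lower (14.9%). Klk1 had 361, 675, 442 and 666 CPM in pDC against 0.841, 0.297, 0.554 and 0.365 CPM in all other cells (log2 fold change 9.76 ± 0.22). Gm21762 (9.05), Atp2a1 (9.05), Dntt (8.54), Sh3bgr (8.39), the axon guidance receptor gene Robo3 (8.39), Pdzd4 (8.0), Klk1b27 (7.83), Cox6a2 (7.74) and Fbxl13 (7.72) made up the rest of the 10 highest log2 fold changes. Robo3 and Fbxl13 rest on 25 and 29 UMIs in pDC. The muscle calcium pump gene Atp2a1 had 126, 173, 195 and 194 CPM in pDC against 0.388, 0.178, 0.0923 and 0.411 CPM elsewhere. Il12a and Ccl4 were higher among the cytokine and chemokine genes. No count of lower members is given, since 7 of 10 cytokine genes and 4 of 12 chemokine genes had under 10 UMIs in pDC and passed the filter through the other cells. Flt3 was higher (3.21 ± 0.24), as was Clec9a (3.44 ± 0.36), a receptor for dead cells best known from cross-presenting dendritic cells. Clec9a was seen in 23.8% of pDC and 0.313% of T cells, and in 85.4% of the gate that was itself chosen by Xcr1 and Clec9a. These shares depend on depth too. Of 36 annotated type I interferon response genes, 21 had under 10 UMIs in pDC, so no count of lower members is given. The scaling shift in this comparison was -0.24. Irf7 was higher (1.15 ± 0.29), but not after thinning every cell to 1000 UMIs (0.23) nor without WT IgG (0.80). Isg15 was lower (-1.82 ± 0.22). Of 28 cell cycle genes, 20 had under 10 UMIs in pDC and 8 had 0. Mki67 had 2 UMIs and Ccna2 and Ccnb1 0 in the 160 pDC.

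Within the class, the spread of each gene among cells was set against counting error. For 947 genes with at least 100 UMIs, the squared deviation of each cell from its library mean at its own depth, divided by the expected count, had a median of 1.18, where 1 is Poisson sampling. This index passed 2 for 103 genes and 5 for 27. For the same relative spread it rises with the UMIs per cell of a gene. A value near 1 at low counts thus does not show that cells are alike, and genes of unlike level cannot be ranked by it. Siglech, whose counts per cell the gate bounds from below, had an index of 1.82. Tcf4 had 1.46, Irf8 1.96 and Ccr9 2.56, while Klk1 reached 4.61 and Cox6a2 4.83. The genes named next were chosen after their values were seen. Ccl4 had an index of 42.1, with 0 UMIs in 54 of 160 cells and up to 151 in 1 cell. Ly6d (15), Cd74 (22.2), H2-Ab1 (17.5) and H2-Aa (15.2) varied too, and 1 cell held 13.7% of all H2-Ab1 UMIs. Gm42418, which overlaps a ribosomal RNA repeat, had the highest index (102). The neutrophil genes S100a8 (59.1) and S100a9 (36.6) followed, with 34.0% of all S100a8 UMIs in 1 cell.

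**Figure D4:**
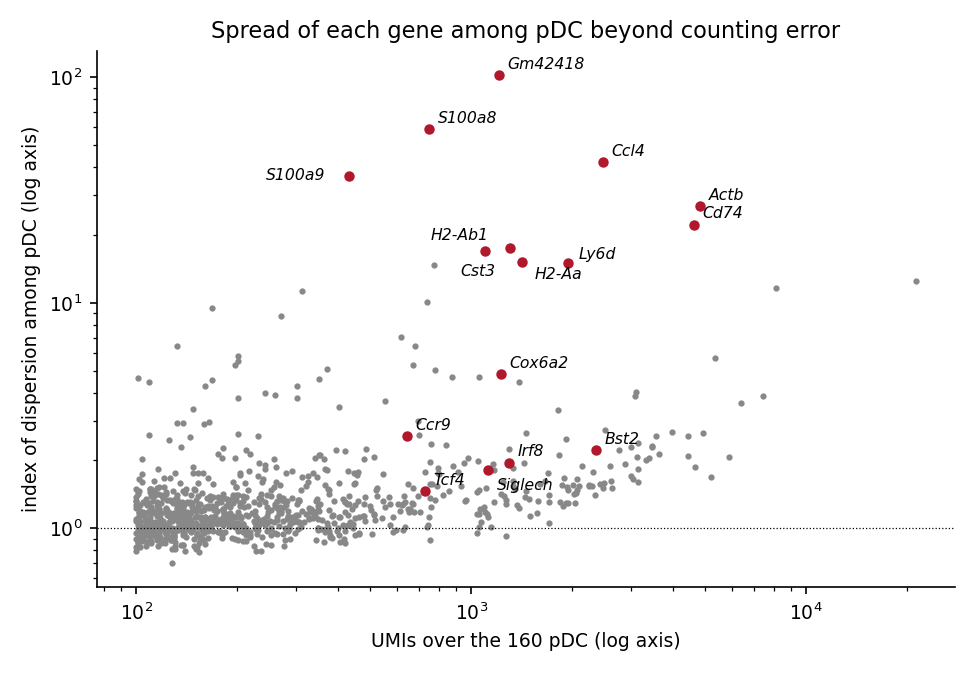
Index of dispersion among the 160 pDC against total UMIs, both on log axes, with 1 point per gene with at least 100 UMIs and a dotted line at 1, the value of Poisson sampling. Most genes lie near 1, while Gm42418, S100a8, Ccl4 and the MHC class II genes stand above.

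Cd209a, a lectin of type 2 conventional dendritic cells that the gate did not use, was present in a minority of pDC. At least 2 UMIs were seen in 15 pDC, 1 UMI in 18 and 0 in 127. In these 3 sets in that order, Ly6d stood at 1143, 2372 and 3303 CPM, and Cox6a2 at 1178, 1532 and 1998 CPM, lowest with most Cd209a. Ccr9 (648, 615 and 1072 CPM) and Klk1 (353, 339 and 584 CPM) were lower in both sets with Cd209a but not in order. Tcf4 was highest in the first set, at 1390.4, 879 and 1074 CPM. Id2 stood at 283, 87.9 and 55.6 CPM, on 24, 7 and 28 UMIs. Bst2 stood at 3606, 3791 and 3482 CPM. The neutrophil gene S100a8 stood at 200.3, 351 and 1400.2 CPM and moved with the split, and its part in the other values was not tested. H2-Aa was not higher with Cd209a, at 1449, 2197 and 2232 CPM. The sets were formed from the data and have no test, and the cells with at least 2 UMIs came from KO anti-PD-1 (4), KO IgG (0), WT anti-PD-1 (5) and WT IgG (6).

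Between conditions the pDC of single libraries were set side by side without a test. Genes with at least 20 UMIs over both libraries were counted where the ratio of CPM was at least 2-fold and its exact conditional 95% interval left out 1. In KO IgG against WT IgG, which asks what loss of Asf1a in the tumour goes with in host pDC, 41 of 2209 genes were higher (1.86%) and 63 lower (2.85%). Ccr9, Cox6a2 and Klk1 moved little, with ratios of 0.917 (0.713 to 1.17), 0.886 (0.74 to 1.06) and 1.01 (0.752 to 1.36), all with 1 inside. Of 35 pDC surface and secreted markers with enough UMIs, 2 were higher in KO IgG (Crlf2 and Dirc2) and none lower. Of 13 pDC transcription factors with enough UMIs, Ets1 was higher and Spib lower.

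Of 8 interferon response genes with enough UMIs, 3 were lower in KO IgG, none was higher, and the median log2 ratio was -1.10 against -0.018 over all genes. Ifi27l2a, an interferon-induced protein gene, had 182 CPM in pDC of KO IgG (20 UMIs in 13 cells) and 482 CPM in WT IgG (97 UMIs in 21 cells), a ratio of 0.378 (0.221 to 0.617). In all other cells Ifi27l2a had 224 CPM in KO IgG and 386 CPM in WT IgG. Isg15, a ubiquitin-like protein gene, had 1 UMI in KO IgG and 19 in WT IgG, a ratio of 0.0966 (0.00232 to 0.607), but 57.9% of the WT IgG UMIs came from 1 cell. Irf7 had 27.4 CPM in KO IgG and 89.5 CPM in WT IgG, with an interval that held 1. The 2 anti-PD-1 libraries differed in the same gene, with Ifi27l2a at 334 CPM in KO anti-PD-1 and 711 CPM in WT anti-PD-1 and thus at 0.469 (0.339 to 0.642) times its level. Isg15 and Irf7 went the other way there, at 49.2 and 71.1 CPM in KO anti-PD-1 against 34.4 and 51.6 CPM in WT anti-PD-1, on 6 to 13 UMIs. Of 9 response genes with enough UMIs in those libraries, 2 were lower (Ifi27l2a and Phf11b) and none higher, with a median log2 ratio of -0.37 against -0.050 over all genes.

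Ccl4 was also lower in the KO libraries. It had 2207 CPM in pDC of KO IgG against 4696 CPM in WT IgG, a ratio of 0.47 (0.406 to 0.542), and 2658 CPM in KO anti-PD-1 against 4619 CPM in WT anti-PD-1, for which the ratio was 0.575 (0.513 to 0.645). All other cells had 543 CPM in KO IgG against 605 CPM in WT IgG, and 839 CPM in KO anti-PD-1 against 882 CPM in WT anti-PD-1. Ccl4 was seen in 33 of 56 pDC of KO anti-PD-1, 20 of 32 of KO IgG, 25 of 36 of WT anti-PD-1 and 28 of 36 of WT IgG, and its intervals take no account of the wide spread among cells. Cd209a had 2 UMIs in pDC of KO IgG against 33 in WT IgG, a ratio of 0.111 (0.0129 to 0.435), and Clec10a, another type 2 dendritic cell lectin, 164 CPM against 358 CPM, a ratio of 0.459 (0.257 to 0.777). Spib had 5 UMIs in KO IgG against 40 in WT IgG, a ratio of 0.229 (0.0706 to 0.581). With the antibody, Spib had 148 CPM in KO anti-PD-1, and the ratio to KO IgG was 3.24 (1.23 to 10.8). By the rule for naming genes, the 4 highest ratios of KO IgG over WT IgG were those of Iglc2 at 7.34 (3.94 to 14.7), the mitochondrial protease gene Yme1l1 at 4.89 (1.82 to 15.3), the spindle gene Haus3 at 4.4 (2.03 to 10.3) and the membrane glycoprotein gene Gpm6b at 4.28 (1.55 to 13.6). The 4 lowest were those of Crlf3 at 0.0798 (0.00194 to 0.491), the SLAM family receptor gene Ly9 at 0.0966 (0.00232 to 0.607), Cd209a, and the translation factor gene Eif1b at 0.111 (0.0129 to 0.435). Crlf3 and Ly9 had 1 UMI each in KO IgG, so their ratios are loose. Iglc2 is an immunoglobulin gene of plasma cells, and 1 cell held 34.6% of its UMIs in KO IgG.

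**Figure D5:**
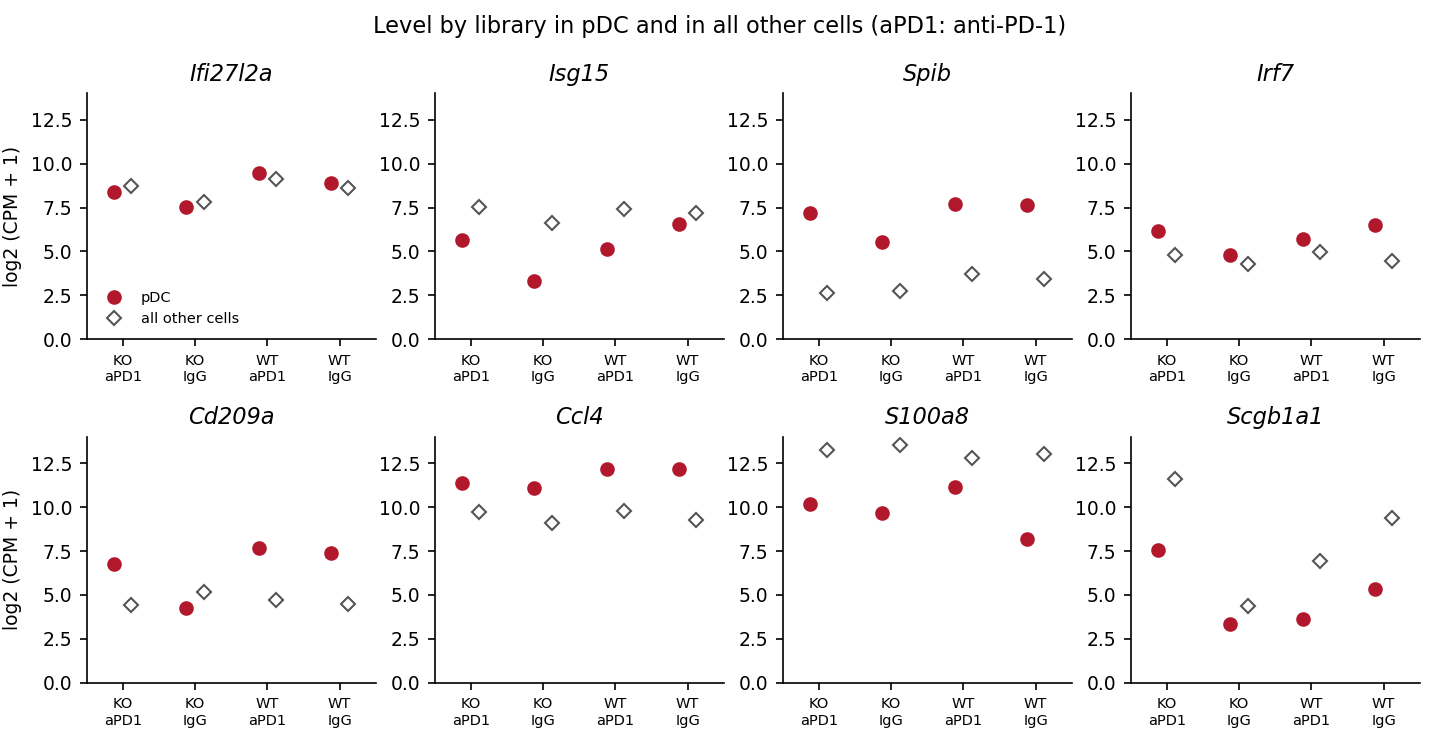
Level of 8 genes by library, as log2 of CPM plus 1, in pDC (filled circles) and in all other cells of the same library (open diamonds). Ifi27l2a, Isg15 and Ccl4 are lowest in KO IgG in both, Cd209a and Spib are lowest in KO IgG in pDC but not in the other cells, and Scgb1a1 in pDC is highest where it is highest in the other cells.

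With anti-PD-1 in the WT tumours, 41 of 2592 genes were higher in pDC of WT anti-PD-1 than of WT IgG (1.58%) and 41 lower (1.58%). The highest ratios were those of the tRNA synthetase gene Eprs at 5.2 (1.71 to 21.1), Cdc123 at 4.62 (1.49 to 19.0), and, at 3.85 (1.49 to 11.7) each, the prostaglandin E2 receptor gene Ptger4 and the MYC partner gene Max. The lowest were those of the protein kinase A gene Prkacb and the transcription factor gene Cebpd at 0.204 (0.0383 to 0.704) each, AC140186.1 at 0.272 (0.132 to 0.516), and Sppl2a, a protease that cleaves the invariant chain, at 0.289 (0.0702 to 0.895). Prkacb and Cebpd had 3 UMIs each in WT anti-PD-1 against 17 in WT IgG. Id2 had 4 UMIs in WT anti-PD-1 against 31 in WT IgG, a ratio of 0.149 (0.0382 to 0.421), and Ccr2 a ratio of 0.369 (0.144 to 0.845). Interferon response genes showed no common shift here, with 1 of 10 lower (Isg15), none higher and a median log2 ratio of 0.14. In the KO tumours, 46 of 2018 genes were higher in KO anti-PD-1 than in KO IgG (2.28%) and 54 lower (2.68%), and against WT anti-PD-1, 69 of 2426 genes were higher (2.84%) and 73 lower (3.01%). The lowest ratios of KO anti-PD-1 over KO IgG were those of the microtubule gene Eml4 at 0.247 (0.0866 to 0.627), the vesicle coat gene Arcn1 at 0.257 (0.081 to 0.712), and, at 0.282 (0.105 to 0.69) each, the phosphatase regulator gene Ppp1r16b and the NAD hydrolase gene Cd38. Over WT anti-PD-1 they were those of the endosomal co-chaperone gene Dnajc13 at 0.207 (0.0615 to 0.557), the co-chaperone gene Stip1 at 0.212 (0.0521 to 0.643), Eml4 at 0.238 (0.0879 to 0.558) and the lipoprotein receptor gene Lrp8 at 0.254 (0.101 to 0.568). The class II modulator gene H2-Oa was higher in KO anti-PD-1, at 3.20 (1.32 to 9.36) times KO IgG and 3.39 (1.58 to 8.07) times WT anti-PD-1. Dntt was 2.19 (1.44 to 3.37) times WT anti-PD-1.

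Several genes with the highest ratios in KO anti-PD-1 are better known from other cell types. Scgb1a1, the secretory protein of airway club cells, had 34 UMIs in 24 pDC of KO anti-PD-1 against 1 UMI in KO IgG, a ratio of 20.4 (3.42 to 829). In all other cells it had 3114 CPM in KO anti-PD-1, 19.8 in KO IgG, 119.7 in WT anti-PD-1 and 678 in WT IgG. The neutrophil granule gene Pglyrp1 at 12 (1.92 to 497), Tnfaip2 at 11.4 (1.81 to 474) and the lysosome gene Bloc1s1 at 8.4 (2.12 to 72.7) completed the 4 highest over KO IgG. The highest over WT anti-PD-1 were the survival gene Bcl2a1b at 31.5 (5.27 to 1279.6), the chemerin receptor gene Ccrl2 at 24.8 (4.07 to 1016), the lipopolysaccharide receptor gene Cd14 at 21.0 (3.39 to 865) and Scgb1a1 at 16.2 (4.15 to 139). Bcl2a1b has near-identical paralogues, so its count is uncertain, and Bcl2a1b, Ccrl2 and Cd14 had 1 UMI each in WT anti-PD-1. A single cell held 42.1% of the Tnfaip2 UMIs of KO anti-PD-1, 42.3% of those of Ccrl2, 40.0% of Pglyrp1, 39.4% of Bcl2a1b and 31.8% of Cd14. Neutrophil markers were unequal between the libraries. The 9 listed, all with UMIs in pDC, summed to 2674 CPM in pDC of KO anti-PD-1, 1705 in KO IgG, 4056 in WT anti-PD-1 and 691 in WT IgG. S100a8 alone had 1154, 821, 2243 and 288 CPM in these libraries, and 1 cell held 65.2% of its UMIs in WT anti-PD-1. Of the 160 pDC, 9 carried 10 or more UMIs of S100a8 and S100a9, and 6 of these were in KO anti-PD-1, 1 in KO IgG, 2 in WT anti-PD-1 and 0 in WT IgG. Only 1 pDC passed a Scrublet doublet score of 0.25. Without those 9 cells, chosen as an alternative after the data were seen, the ratio of KO anti-PD-1 over WT anti-PD-1 was 5.22 (0.584 to 247) for Ccrl2 and 6.26 (0.76 to 288) for Cd14, both with 1 inside, and Tnfaip2 was left with 2 UMIs in KO anti-PD-1 and 0 in KO IgG. Scgb1a1 kept a ratio of 21.6 (3.61 to 879) over KO IgG, Bcl2a1b 25.1 (4.09 to 1030.5) over WT anti-PD-1, and in KO IgG over WT IgG Ifi27l2a gave 0.354 (0.201 to 0.589) and Ccl4 0.464 (0.4 to 0.537). The part of RNA from neutrophils and other cells in the other ratios was not tested.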

How the data were processed

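Live cells of perfused whole lung, digested with collagenase D and DNase I, were made into 10x Genomics 3′ version 2 libraries, 1 per condition. The deposited matrices hold whole-number UMI counts per gene and cell for 31053 mouse genes, which the authors made with Cell Ranger (3.0.0 in the deposited headers). Besides Cell Ranger, bcl2fastq and the build hg19 appear in the submitters' processing notes, although hg19 is not a mouse build. The alignment reference and strand setting are not given in the sources used here. The 1 barcode list, of 6074 entries, had the cell number of 1 library only, so barcodes shared between libraries could not be counted.

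Cells with under 200 genes or over 10% mitochondrial UMIs were left out, which kept 23730 cells. The gates, gene lists and members were chosen with earlier results of these data known. UMI counts were summed per class and library and tested with edgeR 4.0.16 (quasi-likelihood, TMM, filterByExpr with a minimum count of 10, library as block, which pairs classes from the same library). Genes of the gates (Siglech, Cd3d, Cd3e, Cd3g, Cd79a, C1qa, C1qb, C1qc and mitochondrial genes, and Xcr1, Clec9a and Cd209a against conventional dendritic cells) got no call. p-values were Benjamini-Hochberg adjusted over all genes tested, and a call needed an adjusted p under 0.05 and at least 2-fold. ± is the standard error of a log2 fold change. Intervals are exact 95% ones and cover counting error only. The test was tried on simulated data first.

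Named genes were, of called genes with 1 direction in all 4 libraries and at least 20 UMIs in the higher class, the 12 highest and 8 lowest against conventional dendritic cells, the 10 highest against all other cells and the 6 highest and 6 lowest against B cells. Between libraries they were the 4 highest and 4 lowest ratios of genes with at least 20 UMIs over both libraries, at least a 2-fold ratio and an interval without 1, where no single cell held 50% of the UMIs. Members of the lists were named beside them, as those with most UMIs, those called and those at 0. Doublets were scored with Scrublet in scanpy 1.11.5 and kept, with 74 to 101 cells of a library above 0.25.

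Alternatives were DESeq2 1.42.0, median-of-ratios factors, no count filter, no block, other gates, removal of scored doublets, thinning and each library left out. A set of 3 was added after the data were seen: leaving out pDC with 10 or more UMIs of S100a8 and S100a9, leaving out pDC with a high doublet score, and CPM without TMM scaling for gene lists. Some genes of the lists are not reported here. Python 3.11.15, R 4.3.3 and limma 3.58.1 were used.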

Additional observations from a re-analysis of the deposited data

Results flagged for a closer look

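The ratios of pDC shares lay on opposite sides of 1 in pairs of contrasts, a difference that was not tested since each condition has 1 library. With anti-PD-1 the share was 1.86 times as large in KO anti-PD-1 as in KO IgG but 0.914 times as large in WT anti-PD-1 as in WT IgG. Loss of Asf1a in the tumour went with a ratio of 1.72 between the anti-PD-1 libraries and of 0.848 between the IgG libraries. The 2 pairs are the same 4 shares read both ways. The ratios below 1 have no clear direction, as the intervals of 0.914 (0.56 to 1.49) and 0.848 (0.51 to 1.4) held 1. KO IgG over WT IgG turned to 1.17 (0.703 to 1.94) in cells with at least 500 genes. With each cell thinned to 1000 UMIs it was 1.14 (0.547 to 2.33), and it stayed below 1 in the other settings.

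S100a4, a calcium-binding protein of myeloid and transitional dendritic cells, was 4.10 times as high in pDC of KO anti-PD-1 as of KO IgG, and 0.433 times as high in WT anti-PD-1 as in WT IgG. It had 41 UMIs in KO anti-PD-1, 6 in KO IgG, 9 in WT anti-PD-1 and 24 in WT IgG, and 1 cell held 73.2% of those in KO anti-PD-1. The difference between the antibody effects was not tested.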

How the results depend on the processing

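Of 144 alternative values of 14 main results (6 counts of called genes, the shares and their ratios), 128 kept to within 1.5 times the count or inside the interval. Thinning each cell to 1000 UMIs, which left 833, 8507 and 1085 genes to test, cut the calls to 120 higher and 98 lower against conventional dendritic cells, 312 and 932 against all other cells and 147 and 134 against B cells. Without the count filter, 1073 of 13404 genes were lower than in conventional dendritic cells and 990 of 14890 lower than in B cells. Without the replicate block the counts were 502 and 464, 742 and 1558, and 513 and 415, and pairing by library thus changed none by over 1.5 times. With each library left out in turn they ranged over 501 to 627 and 478 to 588 against conventional dendritic cells, 626 to 727 and 1341 to 1508 against all other cells, and 503 to 616 and 428 to 556 against B cells. The KO anti-PD-1 share was 1.34% with at least 1 Siglech UMI, 1.49% of cells with at least 500 genes and 1.36% of cells without the neutrophil pattern, the last 2 settings giving 0.807% and 0.885% in KO IgG. WT IgG gave 0.904% without the neutrophil pattern, and thinning gave 0.358% in WT anti-PD-1 and 0.371% in WT IgG. Of 153 fold changes of named genes between classes, 15 lost a call under some alternative, among them Btk under 5 of them, and Unc93b1 gained one when thinned (1.20). Against B cells Xbp1 turned to 0.190 when thinned, and the secretory pathway median turned to 0.00898 as a ratio of CPM. Without the 9 pDC with 10 or more UMIs of S100a8 and S100a9, S100a9 turned to 0.954 in KO IgG over WT IgG, S100a8, S100a9 and Cxcl2 to 0.659, 0.616 and 0.750 in WT anti-PD-1 over WT IgG, and Cxcl2 to 0.759 in KO anti-PD-1 over KO IgG. Tnfaip2 then had 0 UMIs in KO IgG, so no ratio is given. With 32 to 56 pDC per library, a gene under 20 UMIs over 2 libraries was not compared. The cause of these changes was not tested.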

Other observations

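Against B cells, 6 of 15 tested pDC transcription factors were higher in pDC and 3 lower, with a median log2 fold change of 0.78 (without TMM scaling, 11 had at least 2-fold more CPM and 1 less, at a median log2 ratio of 1.65). Tcf4 (2.23 ± 0.13) and Runx2 (4.96 ± 0.19) were higher, whereas Spib, which both classes use, had a log2 fold change of 0.58 ± 0.21 (adjusted p = 0.0348). Ly6d was 1 of the 5 surface markers that were not called, at 0.82 ± 0.14. Of 11 tested MHC class II genes, 5 were lower in pDC than in B cells and H2-DMb1 was higher, at a median log2 fold change of -0.97, whereas the ratio of CPM without scaling was at least 2-fold lower for 3 and higher for 2, at a median of -0.12 on the log2 scale.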
